A study of Mus musculus with 24 samples.

Results

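The nuclear genes of the mitochondrial respiratory chain and ATP synthase were described across sorted populations of a mouse acute myeloid leukaemia. Genes were taken by symbol, from Nduf subunits (complex I), Sdha to Sdhd (complex II), Uqcr genes (complex III), Cox4 to Cox8 genes (complex IV) and Atp5 genes (complex V). Of 23361 rows in the file, 84 matched, and the 79 that reached 1 FPKM or more in at least 4 of 24 libraries are the genes described here: 35 of complex I, 4 of complex II, 8 of complex III, 15 of complex IV and 17 of complex V. FPKM are fragments scaled by transcript length and by the library's mapped fragments, so levels of different genes are compared per length. The 5 genes that did not reach the minimum were Cox7b2, Cox8b and Cox8c, listed at 0.001 in all libraries, and Ndufa4l2 and Ndufb4. Of 26 names looked for of subunits encoded in mitochondrial DNA, 0 had a row.

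The leukaemia carried NRASG12V, a constitutively active RAS protein, and Mll-AF9, a fusion of the histone methyltransferase MLL with AF9, and arose in F1 mice of FVB/n and C57/BL/6J parents. All groups share this genotype, and there is no healthy control. The groups, all from leukaemic spleens, were MacLowKit+Sca1+ cells (4 libraries), MacLowKit+Sca1- cells (5), MacLowKit-Sca1- cells (5), MacHigh cells (5) and unsorted cells (5). The prefix MacLow is left out of the names below. Mac-1 is a myeloid integrin, Kit the receptor of stem cell factor and Sca-1 a membrane protein found on blood stem cells of the mouse. The series' title calls one population enriched for leukaemia stem cells, and the groups were compared to see how they differ. The promoters that drive the oncogenes, the number of mice and the ages are not given in the sources used here. Nothing in the labels says that replicates came from separate mice, so the spread behind each p-value is that of these samples and could be technical.

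Complex I oxidises NADH and complex II oxidises succinate, and both pass the electrons by ubiquinone to complex III. Cytochrome c carries them from there to complex IV, which reduces oxygen, and complex V makes ATP from the proton gradient that complexes I, III and IV build. Most subunits are encoded in the nucleus and imported, and several of complex IV exist as tissue isoforms. In blood, quiescent stem cells are known to rely less on this pathway than dividing progenitors, and myeloid leukaemia stem cells have been described as dependent on it.

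Libraries did not carry equal weight. The relative sequencing depth, estimated from the steps between low FPKM values, ran between 0.796 and 1.97, and the FPKM of all rows summed to between 445970 and 644381. The sort genes followed their gates: Itgam averaged 62.0 ± 25.3 FPKM in Kit+Sca1+, 267 ± 132 FPKM in Kit+Sca1-, 267 ± 87.9 FPKM in Kit-Sca1-, 633 ± 44.7 FPKM in MacHigh and 351 ± 35.9 in unsorted cells (SD), and Kit averaged 34.3 ± 7.05, 39.8 ± 8.44, 0.668 ± 0.158, 5.79 ± 0.844 and 10.7 ± 1.75 FPKM in the same order. Ly6a, the gene of Sca-1, averaged 7.67 ± 1.71 FPKM in Kit+Sca1+ and between 0.916 and 2.35 FPKM in the other groups. Markers of other cells differed between groups too. The 10 measured red pulp macrophage genes (such as Spic, Vcam1 and C1qa) summed to between 820 and 2070 FPKM in Kit+Sca1+, 88.8 and 133 in Kit+Sca1-, 80.2 and 169.9 in Kit-Sca1-, 652 and 1163 in MacHigh and 453 and 562 in unsorted cells. The 9 measured dendritic cell genes summed to between 349.5 and 649 FPKM in Kit+Sca1+, 14.8 and 80.7 in Kit+Sca1-, 19.6 and 59.1 in Kit-Sca1-, 136 and 385 in MacHigh and 105 and 142 in unsorted cells. The 10 erythroid genes summed to between 393 and 2061 FPKM in unsorted cells and to at most 147 FPKM in each sorted library. The 8 natural killer cell genes summed to between 43.7 and 109 FPKM in Kit+Sca1+, 9.30 and 27.3 in Kit+Sca1-, 56.3 and 195 in Kit-Sca1-, 29.2 and 58.3 in MacHigh and 42.4 and 63.0 in unsorted cells. In these lists 1 erythroid gene was at 0.001 in a whole group, Kit+Sca1-. Of 6 T cell and 4 B cell genes tested, 2 and 0 were higher and 2 and 3 lower in Kit-Sca1- than in MacHigh cells, 1 and 0 higher and 1 and 3 lower in Kit+Sca1-, and 2 and 1 higher and 0 and 2 lower in Kit+Sca1+.

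In FPKM as deposited the respiratory chain genes were mostly highest in Kit-Sca1- cells and lowest in MacHigh cells. Among the 76 genes with an estimate in every group, 44 had their highest mean in Kit-Sca1- cells, 19 in Kit+Sca1- cells, 9 in Kit+Sca1+ cells, 3 in MacHigh and 1 in unsorted cells. The lowest mean lay in MacHigh for 44 of them, in Kit+Sca1+ for 16, in Kit+Sca1- for 8, in Kit-Sca1- for 6 and in unsorted cells for 2. Summed FPKM of the 76 genes ran between 9607 and 12354 in Kit-Sca1- libraries, 9381 and 11928 in Kit+Sca1-, 8976 and 10462 in Kit+Sca1+, 8423 and 9461 in MacHigh and 9169 and 10277 in unsorted libraries. The Kit-Sca1- and MacHigh sums did not overlap, and the other sorted groups overlapped both. Which group came first differed between these sums and the share of each library's FPKM. As a percentage of each library's FPKM the 76 genes took 2.15 ± 0.315 in Kit+Sca1- cells, 1.98 ± 0.307 in Kit-Sca1- cells, 1.73 ± 0.183 in Kit+Sca1+ cells, 1.86 ± 0.120 in unsorted cells and 1.49 ± 0.0846 in MacHigh cells (SD), with MacHigh lowest on both scales. The library sum behind this share, also used to rescale libraries, holds almost nothing for rows without an estimate. In Kit+Sca1- cells these were 35 rows, S100a8, S100a9, Mpo and Elane among them. Lyz2 and Psap had no estimate in MacHigh cells, and S100a9 had none in unsorted cells. The sum averaged 473636 in Kit+Sca1-, 557152 in Kit-Sca1- and 595891 in MacHigh libraries. The part of the missing rows in the Kit+Sca1- share was not tested, so its first place is uncertain. In bulk RNA, fewer cells with a high level and less RNA per cell cannot be told apart.

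**Figure D1:**
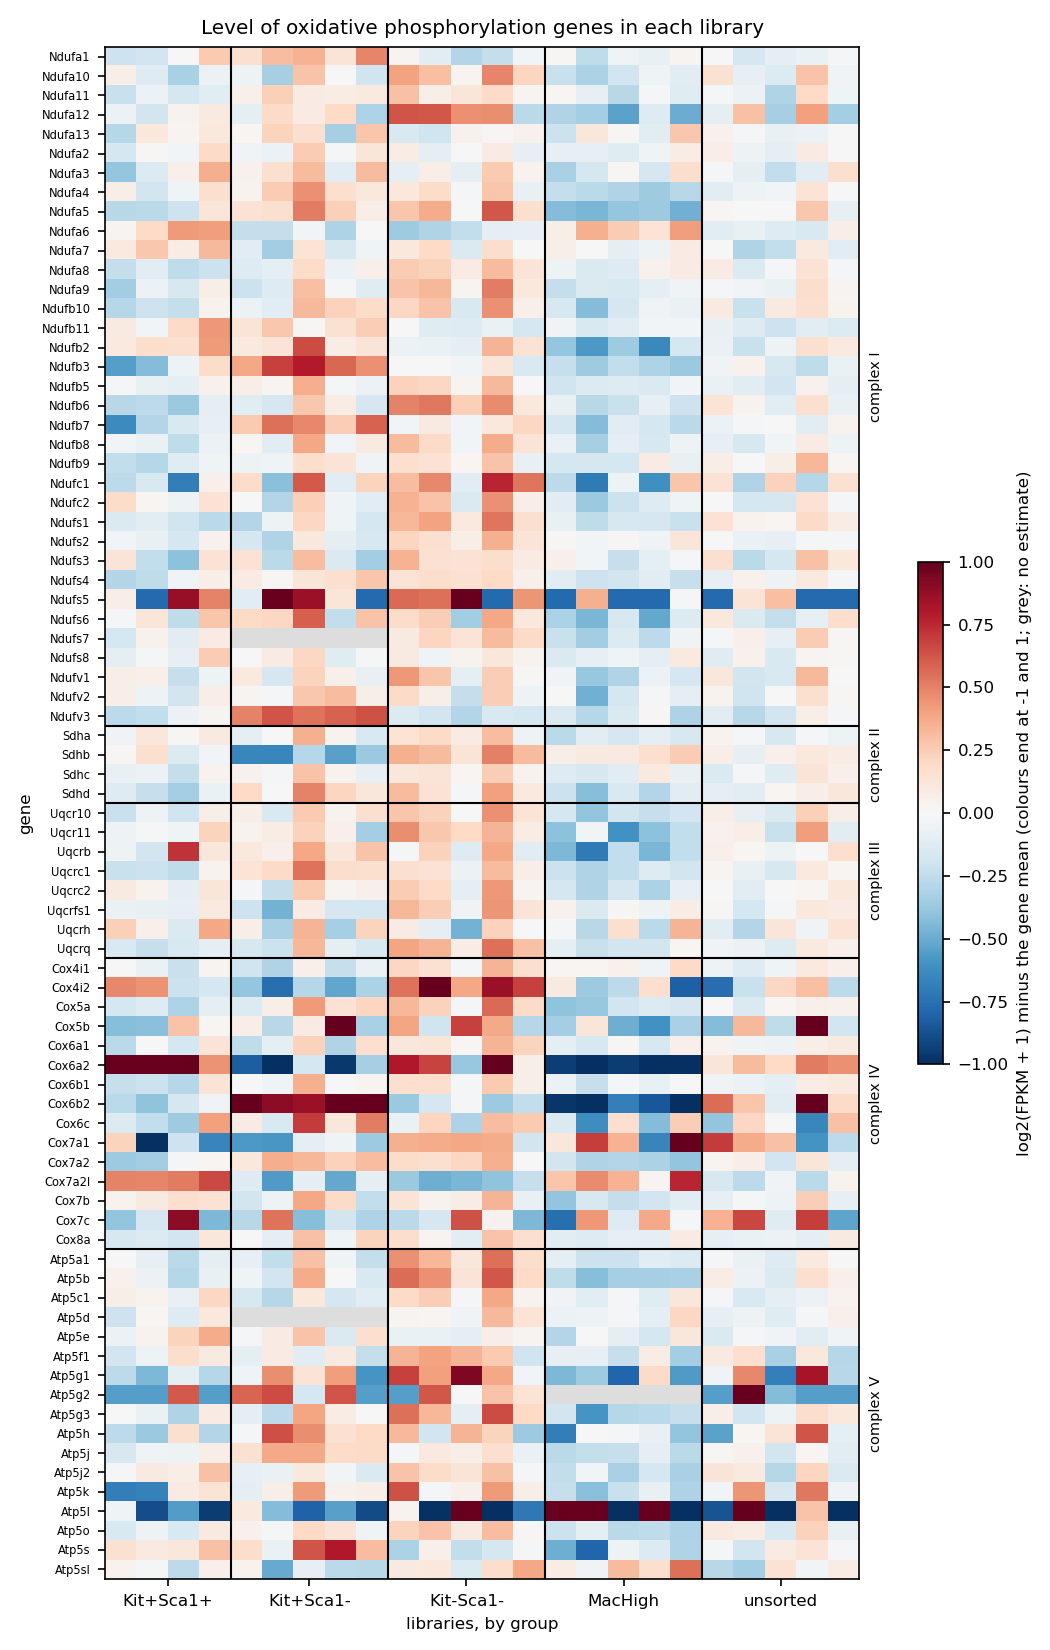
Level of each gene in each library as log2(FPKM + 1) minus the gene's mean over libraries, with genes in rows by complex and libraries in columns by group; red is above and blue below the mean, and grey marks a gene without an estimate in a group. The MacHigh columns are mostly blue and the Kit-Sca1- columns mostly red, while Ndufa6 and Cox7a2l show the reverse.

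Levels spanned a wide range within each complex. Over all libraries mean FPKM ran from 0.488 (Atp5g2) to 686 (Atp5b) with a median of 88.0, and 36 genes had 100 FPKM or more while 17 lay under 25. Among the sorted groups the highest group mean was a median of 1.37 times the lowest. That median was 1.31 for complex I, 1.30 for complex II, 1.38 for complex III, 1.44 for complex IV and 1.40 for complex V. The limma F test over the sorted groups, adjusted over all rows, called 59 of the 76 genes with estimates, against 83.1% of all rows tested.

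Kit-Sca1- cells against MacHigh cells gave the broadest change. Of 78 genes with an estimate in both groups, 49 rose and 2 fell at a limma adjusted p under 0.05, with a median log2 difference of 0.31 on the log2(FPKM + 1) scale. Of all rows tested 50.7% were called, 24.5% higher and 26.2% lower, with a median of -0.02. The calls covered every complex: 23 of 35 genes rose and 1 fell in complex I (median 0.30), 3 of 4 rose in complex II (0.24), 7 of 8 in complex III (0.41), 6 of 15 rose and 1 fell in complex IV (0.24), and 10 of 16 rose in complex V (0.33). Of the 78 genes 36 were higher without overlap of any values between the groups, as were 16.3% of all rows tested. Of the 8 natural killer cell genes 6 also rose and 2 fell, and of the 10 red pulp macrophage genes 10 fell; their part in this comparison was not tested. Under 3 other scalings between 44 and 58 genes rose and 2 fell, and the members' median exceeded that of all rows by between 0.31 and 0.35. With a replicate block by sample name prefix 57 rose and 2 fell.

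Kit+Sca1- cells against MacHigh cells gave 32 genes that rose and 5 that fell of 76, with a median log2 difference of 0.21. Of all rows 62.7% were called, 32.6% higher and 30.1% lower, so the share of these genes called was not above that of all rows. In complex I 15 of 34 rose and 1 fell, in complex II 2 of 4 rose and 1 fell, in complex III 5 of 8 rose, in complex IV 4 of 15 rose and 2 fell, and in complex V 6 of 15 rose and 1 fell. Rescaling libraries to the same FPKM sum moved the median of all rows to 0.32 and gave 59 genes that rose and 2 that fell, and scaling libraries by the median ratio over rows gave 23 and 8. The part of the rows without an estimate in Kit+Sca1- cells in the rescaled counts was not tested. Relative to all rows the members' median stayed between 0.16 and 0.22 higher under the scalings tried.

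Kit+Sca1+ cells had the fewest calls against MacHigh cells. Of 78 genes 11 rose and 1 fell, with a median log2 difference of 0.07, whereas 46.0% of all rows were called, 23.6% higher and 22.4% lower. The genes that rose were Ndufb2, Ndufb11 and Ndufa4, Uqcrb, Uqcr11 and Uqcrc2, Cox6a2, Cox6b2 and Cox7b, and Atp5s and Atp5j2, and the gene that fell was Cox7a1, the muscle isoform of a complex IV subunit. Quantile normalization gave 37 that rose and 1 that fell and leaving out Kit+Sca1+ replicate 4 gave 7 and 0. These 3 comparisons share the MacHigh libraries.

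**Figure D2:**
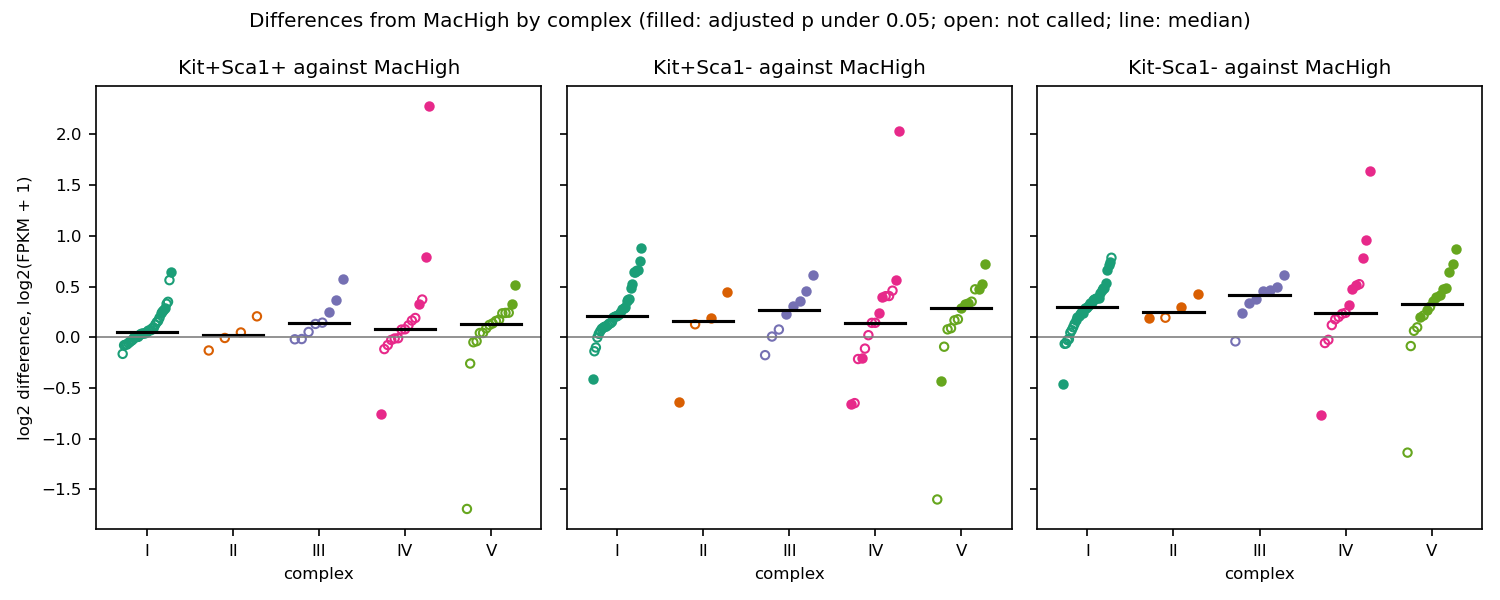
Log2 difference of each gene, on the log2(FPKM + 1) scale, in Kit+Sca1+, Kit+Sca1- and Kit-Sca1- cells against MacHigh cells, by complex; filled points have an adjusted p under 0.05, open points do not, and the line is the median of the complex. The medians of complexes I, III and V are 0.05, 0.14 and 0.13 in Kit+Sca1+, 0.21, 0.27 and 0.29 in Kit+Sca1-, and 0.30, 0.41 and 0.33 in Kit-Sca1- cells.

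Within complex I, Kit+Sca1- cells stood apart in a few accessory subunits. Ndufv3, an accessory subunit beside the NADH-oxidising flavoproteins, had 164, 180.0, 169.5, 175 and 181 FPKM in Kit+Sca1- libraries. It had 96.4, 97.9, 112 and 118 FPKM in Kit+Sca1+, 105, 101, 94.3, 104 and 103 FPKM in Kit-Sca1- and 105, 95.1, 105, 117 and 93.7 FPKM in MacHigh libraries. Every Kit+Sca1- value lay above every value of the other groups, unsorted cells included, which averaged 108 ± 10.1 FPKM (SD, n = 5). The log2 difference of Kit+Sca1- from MacHigh was 0.75 (SE 0.07, adjusted p = 1.03e-08), from Kit-Sca1- 0.77 (SE 0.07, adjusted p = 2.16e-08) and from unsorted cells 0.69 (SE 0.07, adjusted p = 1.33e-07). Against MacHigh the other MacLow groups gave 0.04 in Kit+Sca1+ and -0.02 in Kit-Sca1-, with adjusted p of 0.721 and 0.859.

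Ndufb3 and Ndufb7, accessory subunits of the membrane arm, had the same high group. Ndufb3 had 86.5, 107, 115, 98.7 and 91.3 FPKM in Kit+Sca1-, 65.97, 65.8, 65.0, 72.1 and 59.5 FPKM in Kit-Sca1- and 56.3, 51.3, 55.5, 53.2 and 50.8 FPKM in MacHigh libraries. In Kit+Sca1+ libraries it had 44.7, 48.6, 63.9 and 75.3 FPKM, a wider range than in MacHigh or Kit-Sca1- libraries. Kit+Sca1- exceeded MacHigh by 0.88 (SE 0.11, adjusted p = 2.42e-07) and Kit-Sca1- by 0.59 (SE 0.11, adjusted p = 9.59e-05). Ndufb7, at 273 ± 30.1 FPKM in Kit+Sca1-, 167 ± 27.0 FPKM in Kit+Sca1+, 212 ± 14.7 in Kit-Sca1- and 172 ± 14.3 in MacHigh cells (SD), exceeded MacHigh by 0.66 (SE 0.09, adjusted p = 2.51e-06) in Kit+Sca1- cells and by 0.30 (SE 0.09, adjusted p = 0.0105) in Kit-Sca1- cells. Ndufa1, a small membrane-arm subunit, averaged 138 ± 14.1 FPKM in Kit+Sca1-, against 111 ± 17.5 FPKM in Kit+Sca1+, 103 ± 9.78 in Kit-Sca1- and 108 ± 8.19 in MacHigh cells, with a log2 difference from MacHigh of 0.36 (SE 0.09, adjusted p = 0.00157) in Kit+Sca1-.

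**Figure D3:**
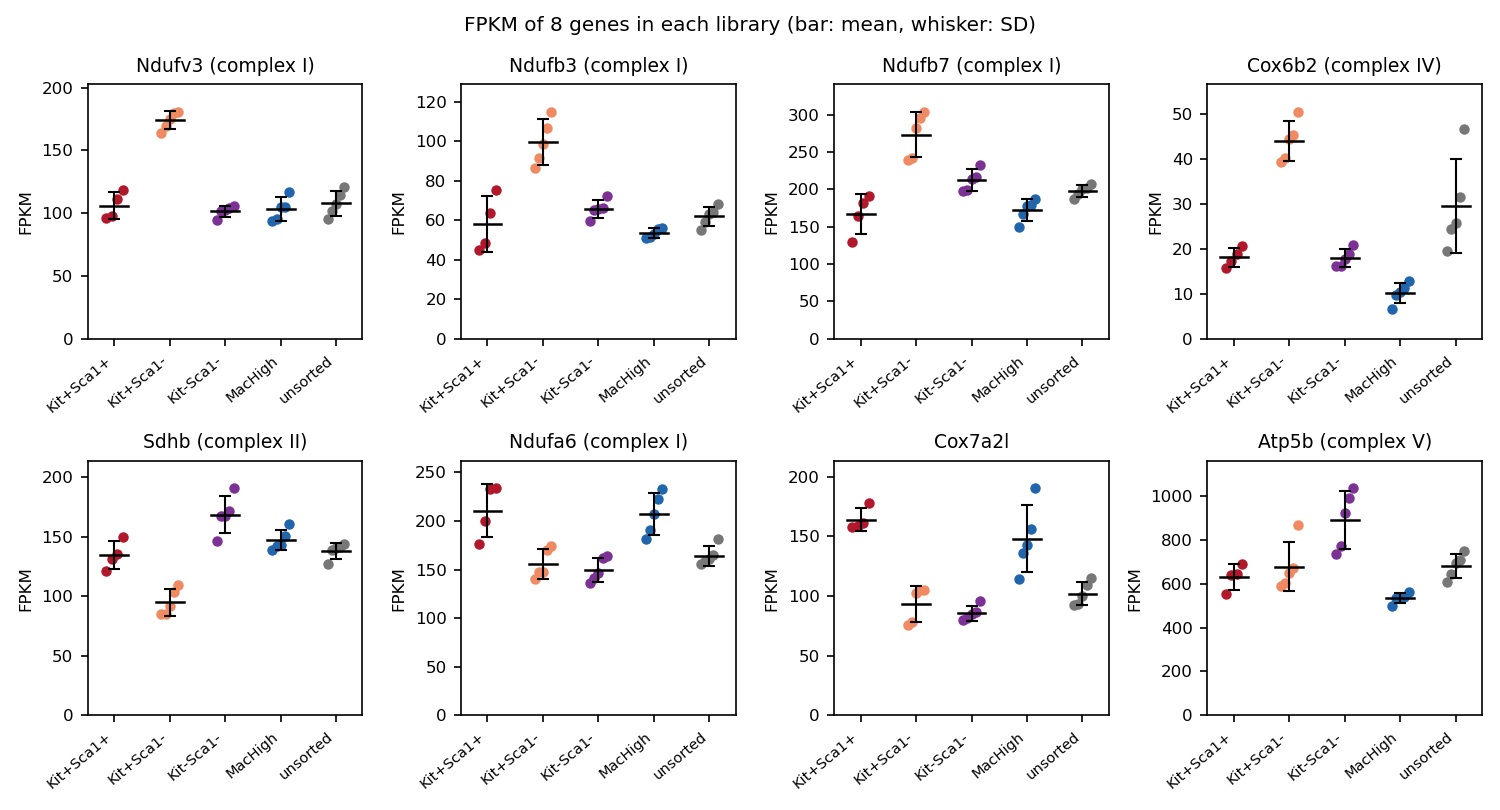
FPKM of 8 genes in each library by group, with the mean (bar) and SD (whisker). Kit+Sca1- libraries are above all other sorted libraries for Ndufv3, Ndufb3, Ndufb7 and Cox6b2 and below them for Sdhb, while Ndufa6 and Cox7a2l are higher in Kit+Sca1+ and MacHigh libraries.

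Ndufa6, an accessory subunit of the peripheral arm, was the complex I gene that fell in Kit-Sca1- against MacHigh cells. It had 177, 199.8, 234 and 233 FPKM in Kit+Sca1+ and 181, 223, 208, 191 and 233 FPKM in MacHigh libraries. It had 147, 148, 170.3, 140.1 and 174 FPKM in Kit+Sca1- and 136, 141, 147, 162 and 164 FPKM in Kit-Sca1- libraries. Every Kit+Sca1+ and MacHigh value lay above every Kit+Sca1- and Kit-Sca1- value. Its log2 difference from MacHigh was -0.46 (SE 0.09, adjusted p = 2.20e-04) in Kit-Sca1- and -0.41 (SE 0.09, adjusted p = 4.72e-04) in Kit+Sca1- cells, and Kit+Sca1+ exceeded Kit-Sca1- by 0.48 (SE 0.10, adjusted p = 2.80e-04). With libraries rescaled to the same FPKM sum, its calls in Kit+Sca1- against MacHigh and in Kit+Sca1+ against Kit+Sca1- were lost (adjusted p = 0.540 and 0.113).

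Among the other complex I genes Ndufa5 and Ndufa12 had sorted group means that lay furthest apart, with the exception of Ndufs5, the highest at 1.67 and 1.77 times the lowest. Ndufa5, of the peripheral arm, averaged 58.0 ± 9.74 FPKM in Kit-Sca1-, 55.2 ± 7.10 FPKM in Kit+Sca1-, 42.2 ± 6.04 in Kit+Sca1+ and 34.7 ± 1.25 in MacHigh cells, with log2 differences from MacHigh of 0.71 (SE 0.10, adjusted p = 9.13e-06) in Kit-Sca1- and 0.65 (SE 0.10, adjusted p = 1.14e-05) in Kit+Sca1-. Ndufa12, also of the peripheral arm, rose by 0.74 (SE 0.16, adjusted p = 6.67e-04) in Kit-Sca1-, with overlapping values, and 26.2% of the 50-base stretches of its transcript also occur in another gene. Ndufb11, of the membrane arm, had its lowest sorted mean in Kit-Sca1- cells. Against MacHigh it rose in Kit+Sca1+ and Kit+Sca1- cells, by 0.24 (SE 0.07, adjusted p = 0.0108) and 0.23 (SE 0.07, adjusted p = 0.00678). Ndufs5 varied by a larger ratio, 3.82, but had at most 2.90 FPKM in any library and passed in none of the comparisons with MacHigh. Ndufa4 had the highest mean of the Nduf genes, and its protein is now known as a complex IV subunit. It rose against MacHigh in all MacLow groups, by 0.28 (SE 0.09, adjusted p = 0.0132) in Kit+Sca1+, 0.49 (SE 0.09, adjusted p = 3.00e-05) in Kit+Sca1- and 0.38 (SE 0.09, adjusted p = 7.13e-04) in Kit-Sca1- cells. Without Kit+Sca1+ replicate 4 the first of these missed the threshold (adjusted p = 0.0579). Ndufs7, a core subunit that holds an iron-sulfur cluster, was listed at 0.001 in all 5 Kit+Sca1- libraries and is not counted there. In the other groups Ndufs7 averaged 87.6 ± 5.37 FPKM in Kit-Sca1-, 74.7 ± 6.30 FPKM in Kit+Sca1+, 66.7 ± 5.65 in MacHigh and 79.1 ± 7.42 in unsorted cells, and Kit-Sca1- exceeded MacHigh by 0.39 (SE 0.08, adjusted p = 3.86e-04).

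Complex II, which is also an enzyme of the tricarboxylic acid cycle, had genes that moved in opposite directions in Kit+Sca1- cells. Sdhb, the iron-sulfur subunit, had 84.8, 84.7, 109.8, 91.6 and 103 FPKM in Kit+Sca1-, against 139, 142, 143, 150.3 and 160.2 FPKM in MacHigh libraries. It had 135, 149.7, 121 and 131 FPKM in Kit+Sca1+ and 171, 167, 147, 191 and 167 FPKM in Kit-Sca1- libraries. Every Kit+Sca1- value was below every value of the other groups, and unsorted cells averaged 138 ± 6.61 FPKM. Sdhb fell in Kit+Sca1- cells, with a log2 difference of -0.63 (SE 0.08, adjusted p = 4.51e-07) from MacHigh and -0.83 (SE 0.08, adjusted p = 2.37e-08) from Kit-Sca1- cells. Kit-Sca1- against MacHigh gave 0.19 (SE 0.08, adjusted p = 0.0504), and an adjusted p of 0.0205 with a replicate block by sample name prefix.

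The membrane anchor Sdhd moved the other way. It averaged 155 ± 20.8 FPKM in Kit+Sca1-, 153 ± 18.5 FPKM in Kit-Sca1-, 117 ± 9.81 in Kit+Sca1+ and 113 ± 9.67 in MacHigh cells (SD), with log2 differences from MacHigh of 0.44 (SE 0.09, adjusted p = 2.73e-04) in Kit+Sca1- and 0.43 (SE 0.09, adjusted p = 5.96e-04) in Kit-Sca1- cells. Sdha, the flavoprotein that binds succinate, differed from MacHigh by 0.30 (SE 0.08, adjusted p = 0.00404) in Kit-Sca1- cells, by 0.19 (SE 0.08, adjusted p = 0.0475) in Kit+Sca1- cells and by 0.21 (SE 0.09, adjusted p = 0.0532) in Kit+Sca1+ cells. Sdhc, the other anchor, differed from MacHigh by 0.19 (SE 0.08, adjusted p = 0.0448) in Kit-Sca1- cells. The call of Sdha in Kit+Sca1- cells was lost under 22 of 35 alternatives. The difference of Sdha in Kit+Sca1+ cells passed with a replicate block by sample name prefix (adjusted p = 0.0258).

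Promoters of the genes that set Kit+Sca1- cells apart are shown to let their start regions be compared, for Ndufv3, Ndufb7 and Cox6b2, which were high there, and Sdhb, which was low. They are RefSeq sequences of GRCm38.p6 from 250 bases before to 50 after the annotated start, written 5′ to 3′ on the gene's strand, with any match to the 3 motifs searched in capitals. Ndufv3 lies at chr17:31519865-31520164 (+), Ndufb7 at chr8:83566508-83566807 (+), Cox6b2 at chr7:4753045-4753344 (-) and Sdhb at chr4:140961021-140961320 (+).
Ndufv3: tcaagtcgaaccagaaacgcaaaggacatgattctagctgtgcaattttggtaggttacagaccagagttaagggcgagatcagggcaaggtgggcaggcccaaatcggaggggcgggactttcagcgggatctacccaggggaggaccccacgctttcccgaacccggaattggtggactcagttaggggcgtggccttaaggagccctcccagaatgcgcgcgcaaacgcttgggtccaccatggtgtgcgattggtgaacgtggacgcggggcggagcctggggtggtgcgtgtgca
Ndufb7: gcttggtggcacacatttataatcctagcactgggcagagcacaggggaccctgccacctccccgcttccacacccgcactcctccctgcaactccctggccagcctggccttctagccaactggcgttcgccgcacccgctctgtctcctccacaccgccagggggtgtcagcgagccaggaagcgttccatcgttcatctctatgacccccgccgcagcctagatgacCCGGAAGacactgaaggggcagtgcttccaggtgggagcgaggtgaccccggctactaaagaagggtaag
Cox6b2: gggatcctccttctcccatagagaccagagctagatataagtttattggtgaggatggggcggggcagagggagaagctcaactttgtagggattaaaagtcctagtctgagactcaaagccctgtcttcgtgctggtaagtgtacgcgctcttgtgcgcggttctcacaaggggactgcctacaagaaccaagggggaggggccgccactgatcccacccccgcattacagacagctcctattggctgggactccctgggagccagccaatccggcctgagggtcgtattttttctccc
Sdhb: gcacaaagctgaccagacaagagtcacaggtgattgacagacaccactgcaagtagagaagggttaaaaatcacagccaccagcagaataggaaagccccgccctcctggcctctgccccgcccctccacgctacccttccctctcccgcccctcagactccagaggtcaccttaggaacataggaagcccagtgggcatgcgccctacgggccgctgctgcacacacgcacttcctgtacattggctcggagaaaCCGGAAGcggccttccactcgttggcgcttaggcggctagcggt

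The motifs were the core letters of 3 factors known for mitochondrial promoters, searched on both strands and exactly: GCGCATGCGC (NRF1), CCGGAAG (GABPA) and AAGATGGCG (YY1). The GABPA letters stood once in the Sdhb promoter, 7 bases after the start, and once in the Ndufb7 promoter, 20 bases before it. Of 66 members with a promoter sequence 16 held them (24.2%), against 9.93% of the promoters of 27025 genes. The NRF1 letters stood in 5 members (7.58%, against 1.07% of all genes) and the YY1 letters in 8 (12.1%, against 1.64%). The promoters of Ndufv3 and Cox6b2 held none of these letters in the window. So the 3 genes shown that were high in Kit+Sca1- cells did not share a match, and Ndufb7 shared the GABPA letters with Sdhb, which was low there. Among other genes with their highest sorted mean in Kit+Sca1- cells, Atp5h, Atp5j and Sdhd held the GABPA letters. Uqcrc1, also highest there, held the NRF1 letters, and Atp5j and Ndufs6 held the YY1 letters. Ndufb3 and Ndufa1 were among the genes highest there that held none of the 3 motifs.

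In complex III the sorted groups were ordered much as over all genes. Uqcrq, a small subunit known as a ubiquinone-binding protein, had 191, 184, 153, 213 and 178 FPKM in Kit-Sca1-, against 135, 124, 127, 127 and 147 FPKM in MacHigh libraries, with no overlap and a log2 difference of 0.47 (SE 0.09, adjusted p = 2.74e-04). Kit+Sca1+ and Kit+Sca1- cells averaged 130.0 ± 5.32 and 140.4 ± 23.98 FPKM, and their differences from MacHigh were -0.02 and 0.08 with adjusted p of 0.888 and 0.494. Uqcrc1, a core protein on the matrix side, was instead highest in Kit+Sca1- cells at 197 ± 25.5 FPKM, with 181 ± 17.4 in Kit-Sca1-, 148 ± 14.4 FPKM in Kit+Sca1+ and 143 ± 6.40 in MacHigh cells, and exceeded MacHigh by 0.46 (SE 0.08, adjusted p = 6.65e-05) in Kit+Sca1- and 0.34 (SE 0.08, adjusted p = 0.00200) in Kit-Sca1- cells. The highest Kit+Sca1- value, 242 FPKM in replicate 3, stood clear of the others, which ran up to 189 FPKM.

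Uqcrfs1, the Rieske iron-sulfur protein, averaged 97.2 ± 13.4 FPKM in Kit+Sca1- and 129.5 ± 16.4 FPKM in Kit-Sca1- cells, a log2 difference of -0.41 (SE 0.09, adjusted p = 7.92e-04). With libraries rescaled to the same FPKM sum that call was lost (adjusted p = 0.199). It had its lowest mean in Kit+Sca1- cells, but its values there overlapped those of MacHigh cells (109 ± 6.60 FPKM). Uqcr10, another small subunit, averaged 199 ± 23.9 FPKM in Kit-Sca1- and 180.1 ± 19.1 in Kit+Sca1-, against 145 ± 8.87 FPKM in MacHigh cells, and rose by 0.45 (SE 0.09, adjusted p = 3.16e-04) and 0.31 (SE 0.09, adjusted p = 0.00591). Uqcrh, the hinge protein at cytochrome c1 and the most abundant of complex III, passed in none of the comparisons as fitted, and in Kit+Sca1+ against Kit-Sca1- cells with the prefix block (adjusted p = 0.0129). Its log2 difference from MacHigh was 0.14 (SE 0.16, adjusted p = 0.501) in Kit+Sca1+, 0.01 (SE 0.16, adjusted p = 0.972) in Kit+Sca1- and -0.04 (SE 0.16, adjusted p = 0.848) in Kit-Sca1- cells.

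Complex IV held wide differences in its isoforms of low level. The highest sorted group mean was 16.2 times the lowest for Cox6a2, 5.51 times for Cox4i2 and 4.32 times for Cox6b2. Atp5l of complex V, described below, stood between these at 10.4 times. Cox6b2, known in testis as the counterpart of Cox6b1, had 44.4, 40.2, 39.3, 50.4 and 45.3 FPKM in Kit+Sca1-, against 10.3, 9.77, 12.8, 11.3 and 6.68 FPKM in MacHigh libraries. It had 17.3, 15.8, 18.7 and 20.6 FPKM in Kit+Sca1+ and 16.1, 18.7, 20.9, 16.2 and 17.7 FPKM in Kit-Sca1- libraries, between the others and without overlap with either. Unsorted libraries had 31.6, 25.8, 19.6, 46.6 and 24.3 FPKM, a spread that overlapped all but MacHigh. Against MacHigh, Cox6b2 rose by 2.03 (SE 0.17, adjusted p = 5.83e-10) in Kit+Sca1-, 0.80 (SE 0.18, adjusted p = 8.74e-04) in Kit+Sca1+ and 0.78 (SE 0.17, adjusted p = 5.25e-04) in Kit-Sca1- cells. Cox6b1, the common form, averaged 323 ± 38.9 FPKM in Kit+Sca1-, 278 ± 39.3 FPKM in Kit+Sca1+, 335 ± 25.4 in Kit-Sca1- and 291 ± 18.3 in MacHigh cells. Its largest difference from MacHigh, 0.20 (SE 0.09, adjusted p = 0.0651) in Kit-Sca1- cells, passed with the prefix block (0.0320).

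Cox6a2, the heart and muscle isoform, had 7.47, 7.72, 5.44 and 2.98 FPKM in Kit+Sca1+ and 4.07, 3.66, 1.24, 7.36 and 2.04 FPKM in Kit-Sca1-, against 0.521, 0.269, 0.508, 0.259 and 0.268 FPKM in MacHigh libraries. It had 0.649, 0.282, 1.58, 0.494 and 1.32 FPKM in Kit+Sca1- libraries. Kit+Sca1+ and Kit-Sca1- exceeded MacHigh without overlap, by 2.28 (SE 0.29, adjusted p = 9.36e-07) and 1.64 (SE 0.27, adjusted p = 3.49e-05), and Kit+Sca1+ differed from Kit-Sca1- by 0.64 (SE 0.29, adjusted p = 0.0718), or 0.0275 with the prefix block. By annotation the gene overlaps the integrin gene Itgad by 70 bases, and Itgad averaged 41.9 ± 20.6 FPKM in Kit+Sca1+, 0.586 ± 0.250 FPKM in Kit+Sca1-, 0.950 ± 0.200 FPKM in Kit-Sca1-, 3.25 ± 0.919 FPKM in MacHigh and 6.45 ± 1.55 in unsorted cells. Whether the counting used strand is not given, and the part of shared reads in the value of Cox6a2 was not tested. The common isoform Cox6a1 averaged between 357 and 420.3 FPKM in the sorted groups and was called in none of the comparisons. With the prefix block it passed in Kit-Sca1- against MacHigh cells (adjusted p = 0.0277), in Kit+Sca1+ against Kit-Sca1- (0.0314) and in Kit+Sca1- against Kit-Sca1- cells (0.0456).

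Cox4i2, the isoform known from lung, averaged 2.18 ± 0.663 FPKM in Kit-Sca1- and 0.655 ± 0.427 FPKM in MacHigh cells, a log2 difference of 0.96 (SE 0.21, adjusted p = 6.09e-04). Values did not overlap, but its level is near 1 FPKM, its gene overlaps Bcl2l1 and the pseudocount compresses the difference. Cox4i1, the common form and the highest of complex IV, averaged 560.0 ± 41.9, 529 ± 52.4 and 661 ± 57.6 FPKM in Kit+Sca1+, Kit+Sca1- and Kit-Sca1- cells and 607 ± 39.3 in MacHigh cells, and in Kit+Sca1- it changed by -0.20 (SE 0.09, adjusted p = 0.0450). With libraries rescaled to the same FPKM sum that difference was 0.13 (adjusted p = 0.327), and the call was lost under 17 of 35 alternatives, most of them with 1 library left out. Cox8a, the single isoform of its family above the minimum, averaged between 350.5 and 404 FPKM in all groups and passed in none of the comparisons, but in Kit-Sca1- against MacHigh (0.0284) and Kit+Sca1+ against Kit-Sca1- cells (0.0315) with the prefix block. Cox7a1, of muscle, averaged 1.93 ± 1.13 FPKM in Kit+Sca1+ and 4.05 ± 2.13 in MacHigh cells, changed by -0.75 (SE 0.30, adjusted p = 0.0449), and lost that call under 11 of 35 alternatives.

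Cox7a2 and Cox7a2l, close relatives in sequence, moved in opposite directions. Cox7a2, the common subunit, had 127, 152, 149, 139 and 147 FPKM in Kit+Sca1- and 134, 132, 136, 152 and 118 FPKM in Kit-Sca1-, against 104, 95.5, 96.4, 94.9 and 89.7 FPKM in MacHigh libraries, and averaged 105 ± 15.1 FPKM in Kit+Sca1+ cells. Cox7a2l, known for joining complexes III and IV into a supercomplex rather than as a subunit, had 158, 158, 161 and 178 FPKM in Kit+Sca1+ and 136, 156, 143, 114 and 190.3 FPKM in MacHigh libraries. It had 103, 75.3, 105, 78.4 and 105 FPKM in Kit+Sca1- and 86.2, 79.5, 81.5, 84.7 and 95.5 FPKM in Kit-Sca1- libraries. All Kit+Sca1+ and MacHigh values of Cox7a2l exceeded all Kit+Sca1- and Kit-Sca1- values.

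Against MacHigh, Cox7a2 rose by 0.57 (SE 0.09, adjusted p = 4.69e-06) in Kit+Sca1- and 0.48 (SE 0.09, adjusted p = 8.21e-05) in Kit-Sca1- cells. The log2 difference of Cox7a2l from MacHigh was -0.66 (SE 0.11, adjusted p = 3.27e-05) in Kit+Sca1- and -0.77 (SE 0.11, adjusted p = 1.15e-05) in Kit-Sca1- cells, and Kit+Sca1+ exceeded Kit-Sca1- by 0.93 (SE 0.12, adjusted p = 1.66e-06). The summed red pulp macrophage genes were also higher in Kit+Sca1+ and MacHigh cells: of the 10 red pulp macrophage genes tested, Kit-Sca1- cells had 10 lower than MacHigh cells, with 9 lower and 1 higher in Kit+Sca1-, and 6 higher and 2 lower in Kit+Sca1+. Of 8 dendritic cell genes 6 were lower and 1 higher in Kit-Sca1-, 6 lower in Kit+Sca1-, and 6 higher and 1 lower in Kit+Sca1+. Itgad, described above, is an integrin gene known from red pulp macrophages. The part of such cells in the levels of Ndufa6 and Cox7a2l was not tested.

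In complex V the catalytic beta subunit Atp5b was the most abundant of all 79 genes. It had 993, 922, 735, 1036 and 771 FPKM in Kit-Sca1-, against 563, 500.1, 534, 534 and 538 FPKM in MacHigh libraries, and these did not overlap. It had 692, 644, 553 and 639.7 FPKM in Kit+Sca1+ and 651, 589, 871, 675 and 605 FPKM in Kit+Sca1- libraries. Against MacHigh, Atp5b rose by 0.73 (SE 0.11, adjusted p = 1.60e-05) in Kit-Sca1- and 0.33 (SE 0.11, adjusted p = 0.0133) in Kit+Sca1- cells. The difference in Kit+Sca1+ cells was 0.24 (SE 0.12, adjusted p = 0.103), and passed with the prefix block (0.0377). The stalk protein Atp5o, which links the catalytic head to the rest, rose by 0.41 (SE 0.08, adjusted p = 1.51e-04) in Kit-Sca1- and 0.29 (SE 0.08, adjusted p = 0.00235) in Kit+Sca1- cells. Atp5j, coupling factor 6 of the same stalk, was highest in Kit+Sca1- cells (172 ± 13.7 FPKM, against 123 ± 6.19 in MacHigh cells) and rose there by 0.48 (SE 0.07, adjusted p = 2.15e-06). By annotation Atp5j overlaps Gabpa by 967 bases, and 16.3% of the 50-base stretches of its transcript also occur in other genes, most in Gabpa. Gabpa averaged 32.8 ± 2.61 FPKM in Kit+Sca1- and 22.7 ± 2.23 FPKM in MacHigh cells, and the part of shared reads in either value was not tested.

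The c subunit of the rotating ring has 3 genes that encode the same mature protein and differ in listed level. Of the 50-base stretches of their transcripts, 11.6% in Atp5g1, 14.8% in Atp5g2 and 0% in Atp5g3 also occur in other genes. The part of this sharing in their levels was not tested. Atp5g3 averaged 582 ± 116 FPKM in Kit-Sca1-, 469 ± 82.0 FPKM in Kit+Sca1-, 436 ± 47.6 in Kit+Sca1+ and 369 ± 38.4 in MacHigh cells. Atp5g1 averaged 12.3 ± 3.27, 9.16 ± 2.72, 6.74 ± 0.762 and 6.28 ± 2.00 FPKM in the same order, and Atp5g2 reached 1 FPKM in 6 libraries, with all 5 MacHigh libraries listed at 0.001. Kit-Sca1- exceeded MacHigh by 0.64 (SE 0.13, adjusted p = 4.20e-04) for Atp5g3 and 0.87 (SE 0.25, adjusted p = 0.00548) for Atp5g1. Kit+Sca1- against Kit-Sca1- gave adjusted p of 0.0643 and 0.190, and 0.00778 and 0.00495 with the prefix block. Atp5d, of the central stalk, was listed at 0.001 in all 5 Kit+Sca1- libraries and had 144 FPKM or more in every other library.

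The Atp5s and Atp5sl rows are taken in by their symbols and are not known as subunits of the enzyme, but every count and median of complex V includes them. Likewise Cox7a2l is in those of complex IV and Ndufa4 in those of complex I. Atp5s averaged 4.41 ± 1.30 FPKM in Kit+Sca1-, 3.58 ± 0.295 FPKM in Kit+Sca1+, 2.73 ± 0.396 in Kit-Sca1- and 2.25 ± 0.635 in MacHigh cells, and rose against MacHigh by 0.72 (SE 0.14, adjusted p = 1.46e-04) in Kit+Sca1- and 0.52 (SE 0.15, adjusted p = 0.00837) in Kit+Sca1+ cells. The difference in Kit-Sca1- cells passed with the prefix block (0.0236). Atp5sl fell in Kit+Sca1- cells, at 10.9 ± 1.69 FPKM against 15.01 ± 2.61 FPKM in MacHigh cells, a log2 difference of -0.43 (SE 0.12, adjusted p = 0.00469). That call was lost with libraries rescaled to the same FPKM sum (adjusted p = 0.481).

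Atp5l, the g subunit of the membrane part, was high in a few libraries of several groups. It had 2.37, 0.659, 21.9, 0.232 and 1.000 FPKM in Kit-Sca1-, 18.2, 23.3, 0.001, 21.6 and 0.541 FPKM in MacHigh and 0.804, 23.5, 0.491, 3.01 and 0.341 FPKM in unsorted libraries. It had 2.19, 0.777, 1.23 and 0.699 FPKM in Kit+Sca1+ and 2.51, 1.43, 0.873, 1.26 and 0.768 FPKM in Kit+Sca1- libraries. It had 18.2 FPKM or more in 5 libraries of 3 groups and at most 3.01 FPKM in the others, and was called in none of the comparisons. Of the 50-base stretches of its transcript 84.8% also occurred in transcripts of 14 other genes, most in the predicted gene Gm10221.

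Such sharing was measured for all 79 genes on the GENCODE transcripts of the mouse. The longest protein-coding transcript of each gene was taken, and the shares depend on that choice. The 54 genes with under 10% of their 50-base stretches in other genes had a median level of 108 FPKM, the 24 with 10% to under 50% had 62.9 FPKM, and the single gene at 50% or more was Atp5l. After Atp5l came Atp5h with 47.9%, Uqcrb with 43.4% and Ndufs3 with 39.7%, at means of 9.99, 20.2 and 8.59 FPKM. Reads that fit more than one place can be split or dropped, so the levels of these genes are uncertain, and the read length is not given. Ndufv3, Ndufb7, Ndufa6, Sdhb and Cox6b2 shared 0%, Ndufb3 6.72% and Cox7a2l 17.7%.

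**Figure D4:**
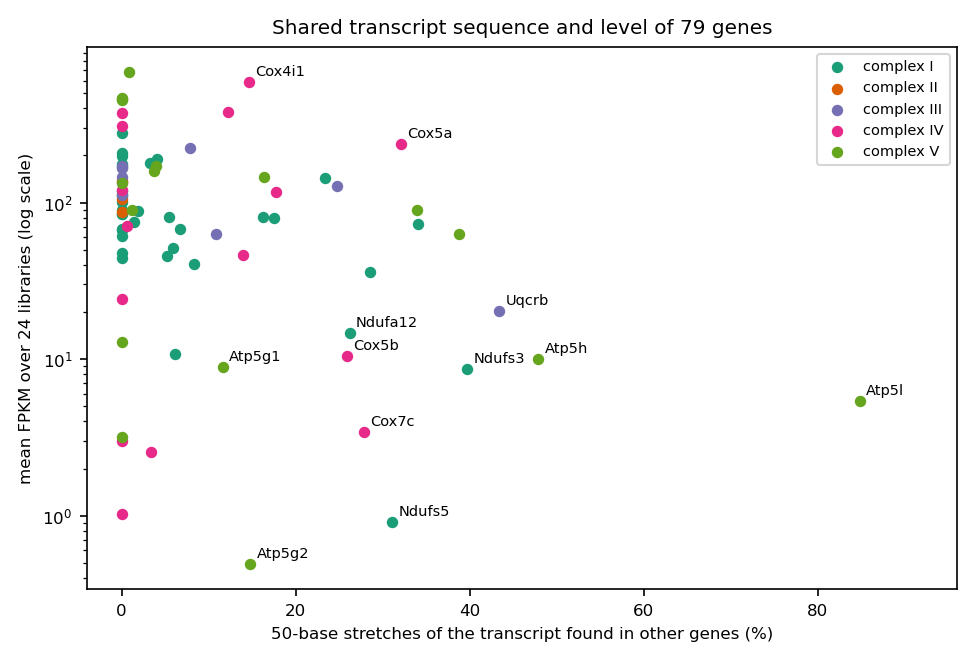
Mean FPKM over 24 libraries (log scale) of each of the 79 genes against the percentage of 50-base stretches of its transcript that occur in other genes, coloured by complex. Atp5l shares 84.8%; of the genes next to it, Atp5h (47.9%), Uqcrb (43.4%) and Ndufs3 (39.7%) lie at 9.99, 20.2 and 8.59 FPKM, and Atp5f1 (38.7%) at 62.9 FPKM.

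Kit+Sca1+ against Kit-Sca1- cells gave more genes that fell than rose. Of 79 genes 3 rose and 32 fell, with a median log2 difference of -0.24, against 45.2% of all rows called, 21.8% higher and 23.3% lower. The genes that rose were Ndufa6, Ndufb11 and Cox7a2l. In complex I 2 rose and 15 of 35 fell, in complex II 2 of 4 fell, in complex III 4 of 8 fell, in complex IV 1 rose and 5 of 15 fell, and in complex V 6 of 17 fell. The log2 difference was -0.75 (SE 0.26, adjusted p = 0.0233) for Atp5g1, -0.49 (SE 0.10, adjusted p = 3.69e-04) for Uqcrq and -0.49 (SE 0.12, adjusted p = 0.00194) for Atp5b. Quantile normalization gave 8 that rose and 20 that fell, rescaling to the same FPKM sum 3 and 17, and the prefix block 7 and 37. Relative to all rows the members' median was -0.20 as fitted and -0.04 after quantile normalization. The call of Atp5g1 was lost without Kit-Sca1- replicate 3 or Kit+Sca1+ replicate 2 (adjusted p = 0.0622 and 0.0632). Markers of other cells moved as well: 9 of 10 red pulp macrophage genes rose (median 5.32) and 7 of 8 dendritic cell genes rose (median 3.64), and their part in this comparison was not tested.

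Kit+Sca1+ against Kit+Sca1- cells gave 6 genes that rose and 17 that fell of 77, a median of -0.10, against 55.1% of all rows called, 26.5% higher and 28.5% lower. Complex I held 10 of the genes that fell, Ndufv3, Ndufb3, Ndufb7 and Ndufa1 among them, and 2 that rose, Ndufa6 and Ndufa7. Sdhb rose by 0.50 (SE 0.09, adjusted p = 3.14e-05), and the difference of Cox6b2 was -1.23 (SE 0.18, adjusted p = 3.97e-06). The split was 9 higher and 15 lower with quantile normalization, 4 and 38 with the same FPKM sum and 8 and 12 with the median ratio, and relative to all rows the members' median was -0.08 as fitted and 0.03 after quantile normalization. With the prefix block the split was 9 higher and 16 lower. Here 10 of 10 red pulp macrophage genes and 7 of 8 dendritic cell genes rose, and their part was not tested.

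Kit+Sca1- against Kit-Sca1- cells gave 8 genes that rose and 16 that fell of 77, a median of -0.09, while 50% of all rows were called, 24% higher and 26.0% lower. This split turned round with libraries rescaled to the same FPKM sum, to 21 higher and 3 lower. There the median of all rows was 0.18 and that of the members 0.12. The FPKM sum averaged 473636 in Kit+Sca1- and 557152 in Kit-Sca1- libraries, and 35 rows without an estimate entered it at 0.001 in Kit+Sca1-. The part of those rows in the turn was not tested. Relative to all rows the members' median was between -0.11 and -0.06 under every scaling tried. With the prefix block the split was 8 higher and 23 lower. The genes that rose were Ndufv3, Ndufb3, Ndufb7, Ndufa1, Ndufb11, Cox6b2, Atp5j and Atp5s. Sdhb, Uqcrq, Uqcrfs1, Atp5b and Atp5a1 were among those that fell, and Uqcrq differed by -0.39 (SE 0.09, adjusted p = 0.00142). With the same FPKM sum the calls of Uqcrq and Uqcrfs1 were lost (adjusted p = 0.284 and 0.199), and that of Atp5b was lost there (0.358), with quantile normalization (0.060) and with only these groups fitted (0.0580). Of the natural killer cell genes 8 of 8 fell (median -1.55), and of 10 red pulp macrophage genes 2 rose and 4 fell. The part of such cells was not tested.

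Unsorted cells had neither the highest nor the lowest mean for 73 of the 76 genes. MacHigh against unsorted cells gave 2 genes that rose, Ndufa6 and Cox7a2l, and 15 that fell of 78, with a median of -0.15, against 39.4% of all rows called, 21.3% higher and 18.2% lower. Cox6a2 and Cox6b2 differed most, by -1.42 (SE 0.27, adjusted p = 3.33e-04) and -1.42 (SE 0.17, adjusted p = 2.23e-06), and Atp5b by -0.35 (SE 0.11, adjusted p = 0.0169). Atp5g1 and Atp5g3 passed with the prefix block (adjusted p = 0.0130 and 0.00589). The prefix block gave 3 that rose and 28 that fell, and the same FPKM sum 0 and 39.

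Kit-Sca1- against unsorted cells gave 8 genes that rose and 1 that fell of 79, against 14.5% of all rows called, 5.65% higher and 8.90% lower. Sdhb, Uqcrq, Cox4i2, Atp5a1 and Atp5b were among the genes that rose, and Cox6b2 fell. The calls of Sdhb, Uqcrq and Atp5b were lost under 4, 2 and 8 of 35 alternatives, and each of them without Kit-Sca1- replicate 4. The count hung on single libraries: without Kit-Sca1- replicate 4 it was 1 and 1, without Kit-Sca1- replicate 1 or unsorted replicate 3 it was 3 and 1, without Kit-Sca1- replicate 2 or unsorted replicate 2 it was 4 and 1, and without Kit-Sca1- replicate 3 it was 18 and 1. The prefix block gave 24 and 2, quantile normalization 2 and 3, and the same FPKM sum 1 and 1.

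Kit+Sca1- against unsorted cells gave 11 genes that rose and 2 that fell of 77, against 47.2% of all rows called, 23.6% in each direction. Ndufv3, Ndufb3 and Cox6b2 rose most, and Cox6a2 and Sdhb fell. The median ratio gave 8 higher and 5 lower. Kit+Sca1+ against unsorted cells gave 5 that rose and 6 that fell of 79, against 32.9% of all rows called, 17.2% higher and 15.7% lower. Cox6a2, Cox7a2l and Ndufa6 were among those that rose and Cox6b2 fell, with a log2 difference of -0.62. With the prefix block 8 rose and 7 fell. The same FPKM sum gave 3 and 7, and the calls were 4 and 3 without unsorted replicate 1, 5 and 2 without Kit+Sca1+ replicate 1 and 3 and 3 without Kit+Sca1+ replicate 2. Erythroid genes were lower in every sorted group than in unsorted cells, 9 of 10 in MacHigh, 8 of 10 in Kit-Sca1-, 9 of 10 in Kit+Sca1- and 9 of 10 in Kit+Sca1+, and their part in these comparisons was not tested.

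Genes that build or feed the chain were counted in lists, with the test and background of each comparison as above. In Kit-Sca1- against MacHigh cells, 41 of 46 genes of the large subunit of the mitochondrial ribosome rose and 1 fell (median 0.47), as did 24 of 29 of the small subunit with 0 that fell (0.49). These ribosomes translate the subunits encoded in mitochondrial DNA. Mrpl18 rose by 0.79 (SE 0.08, adjusted p = 1.54e-07) and Mrps35 by 0.64 (SE 0.08, adjusted p = 2.48e-06), while Mrpl52 changed by -0.69 (SE 0.21, adjusted p = 0.00752). In Kit+Sca1- against MacHigh cells 18 rose and 2 fell in the large and 12 rose and 0 fell in the small subunit list, and in Kit+Sca1+ against MacHigh cells 15 rose and 2 fell, and 7 rose and 0 fell. Of all rows tested 24.5%, 32.6% and 23.6% were higher in these comparisons, so the 7 of 29 in Kit+Sca1+ cells were near the share of all rows.

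Of 13 enzymes of the tricarboxylic acid cycle 10 rose in Kit-Sca1- against MacHigh cells, Idh3a by 0.99 (SE 0.14, adjusted p = 6.43e-06) and Suclg1 by 0.60 (SE 0.11, adjusted p = 7.45e-05), and 0 fell. In Kit+Sca1- cells 6 rose and 3 fell, with the fumarase gene Fh1 at -0.51 (SE 0.12, adjusted p = 6.30e-04), and in Kit+Sca1+ cells 2 rose and 1 fell. Assembly factors of complex I gave 8 of 13 that rose and 0 that fell in Kit-Sca1- cells, 5 that rose and 2 that fell in Kit+Sca1- and 4 and 1 in Kit+Sca1+. The shares of all rows that were higher in these comparisons were 24.5%, 32.6% and 23.6% in the same order. The 5 of 13 in Kit+Sca1- and 4 of 13 in Kit+Sca1+ cells were near those shares. Of 18 for complex IV, 10 rose and 0 fell in Kit-Sca1-, 8 rose and 1 fell in Kit+Sca1-, and 2 rose and 0 fell in Kit+Sca1+ cells. Of 2 assembly factors of complex II, 0 rose in any MacLow group and Sdhaf2 fell in Kit+Sca1+ cells, by 0.25 on the log2 scale (adjusted p = 0.0102). Of 2 for complex III, Bcs1l rose in every MacLow group and Ttc19 fell in Kit+Sca1- cells, by 0.22 (adjusted p = 0.0173). Of 4 for complex V, 2 rose in Kit-Sca1-, 3 in Kit+Sca1- and 2 in Kit+Sca1+ cells, and 0 fell. Of 4 electron carriers 3 rose in Kit-Sca1-, 2 in Kit+Sca1- and 1 in Kit+Sca1+ cells, and 0 fell. The carrier that rose against MacHigh in all MacLow groups was Etfb, of the flavoprotein that passes electrons from fatty acid oxidation. Its log2 difference was 0.80 (SE 0.15, adjusted p = 1.01e-04) in Kit+Sca1+, 1.58 (SE 0.14, adjusted p = 1.26e-09) in Kit+Sca1- and 0.72 (SE 0.14, adjusted p = 1.57e-04) in Kit-Sca1- cells.

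Regulators of mitochondrial biogenesis gave 8 of 14 that rose and 1 that fell in Kit-Sca1- against MacHigh cells, the nuclear receptor gene Esrra at -0.38 (SE 0.11, adjusted p = 0.00613). In Kit+Sca1- cells 8 of 13 rose and 1 fell, with Gabpb1, a subunit of the factor that binds the GABPA letters, at 0.63 (SE 0.10, adjusted p = 8.13e-06) and Gabpa itself at 0.51 (SE 0.08, adjusted p = 1.16e-05), a gene that overlaps Atp5j as described above. In Kit+Sca1+ cells 3 of 14 rose and 1 fell. Against MacHigh 24.5%, 32.6% and 23.6% of all rows were higher in Kit-Sca1-, Kit+Sca1- and Kit+Sca1+ cells. In the same order 26.2%, 30.1% and 22.4% were lower. Ppargc1a, the coactivator known to drive mitochondrial biogenesis, was at 0.0026 FPKM or less on average in every group. Ucp2, an inner membrane carrier of the uncoupling protein family, averaged 185 ± 43.2 FPKM in Kit+Sca1- and 291 ± 40.2 in Kit-Sca1-, against 501 ± 54.0 FPKM in MacHigh cells, with log2 differences of -1.45 (SE 0.12, adjusted p = 7.13e-10) and -0.79 (SE 0.12, adjusted p = 1.71e-05). In its list of 7 carriers 5 rose and 1 fell in Kit-Sca1-, 2 rose and 3 fell in Kit+Sca1- and 0 were called in Kit+Sca1+ cells. Of 9 genes of the defence against reactive oxygen 1 rose and 1 fell in Kit-Sca1- and 2 rose and 2 fell in Kit+Sca1+, while of 8 with an estimate 1 rose and 5 fell in Kit+Sca1- cells.

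Single libraries also moved the whole set. As the median over genes of the deviation from the gene's mean, Kit-Sca1- replicate 4 stood at 0.31 and Kit+Sca1- replicate 3 at 0.29 on the log2 scale, both from samples with the prefix L. The other Kit-Sca1- libraries ran between -0.003 and 0.19, the other Kit+Sca1- libraries between -0.05 and 0.03, and the MacHigh libraries between -0.22 and -0.10. Kit+Sca1+ replicate 4 stood at 0.08, with the other Kit+Sca1+ libraries between -0.12 and -0.07. Without Kit-Sca1- replicate 4, the split of Kit-Sca1- against MacHigh cells was 41 higher and 2 lower, and without Kit+Sca1- replicate 3, that of Kit+Sca1- against MacHigh cells was 24 and 8.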

How the data were processed

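RNA from sorted spleen leukaemia cells was sequenced with a standard Illumina library after RNeasy extraction, per the labels' protocols, in 24 libraries of 5 groups. The authors deposited FPKM per gene, made with TopHat2 2.0.4 and Cuffdiff on mm10, per the submitters' processing notes; the read length, the strand setting and the library normalization are not given in the sources used here. Deposited zeros are written as 0.001. FPKM lose read counts, so no counting interval is given; depth was compared through the steps between low values of 10162 rows.

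Groups were taken from the labels, and the table had 0 columns of other samples. Values were set to log2(FPKM + 1), where the pseudocount of 1 understates changes of low genes. The 11599 of 23361 rows that reached 1 FPKM in 4 libraries or more were fitted together with limma 3.58.1 in R 4.3.3, with a trend of the variance, all 5 groups sharing one spread, and Benjamini-Hochberg adjustment over all rows in each of 10 comparisons and in an F test over the 4 sorted groups. A call is an adjusted p under 0.05. There were 37 rows at 0.001 in a whole group with 5 FPKM or more throughout another group, 35 of them in Kit+Sca1-; each was set to missing there, and genes at 0.001 in a whole group were not counted there (Atp5d and Ndufs7 in Kit+Sca1-, Atp5g2 in MacHigh). The script was tested on simulated data. Figures used Python 3.11.15 and matplotlib 3.10.9.

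All 79 genes matched RefSeq, 3 of them by synonym. Genes were named in full by a rule: in each complex the 2 most abundant, the 3 with the highest F, the strongest against the complex's median, the isoform families, genes without an estimate and rows that are not subunits; other names were chosen after their values were seen. Genes, lists and tests were chosen with earlier results of these data known. Sample names share prefixes that may mark the same mouse, which the labels do not say: deviations of libraries with the same prefix correlated above 0.1 in 34 of 38 pairs, and in every pair of 7 of 10 comparisons (not in Kit+Sca1+ or Kit+Sca1- against MacHigh, nor in Kit+Sca1- against unsorted cells), where the prefix was taken to pair the samples; the replicate block by prefix was fitted in all 10. The replicate numbers in the titles gave 22 of 46. Counts, SE and adjusted p given without mention of a block come from fits that left the prefix out. Alternatives were 3 other scalings, other filters and variance models, both blocks, library weights and leaving out each library.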

Additional observations from a re-analysis of the deposited data

Results flagged for a closer look

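In 18 of 166 groups of values tested, 1 library stood far from the others of its group (Dixon's test). Chance gives about 1 in 20 for independent groups of normally distributed values. These groups share libraries across genes and some hold values at 0.001, so that rate is not a fair yardstick here. Kit+Sca1+ replicate 4 was the highest of its group for Cox6b1 (335.9 FPKM, next 263), Cox8a (404, next 338), Uqcrc1 (169.8, next 143), Uqcrfs1 (117.8, next 105) and Cox7a2l (178, next 161). Kit+Sca1- replicate 3 was the highest for Cox6b1 (391.6 FPKM, next 311), Uqcrc1 (242, next 189), Uqcrq (183, next 136) and Ndufa4l2, which had 0.0419 FPKM there and 0.001 in the other 4 libraries. Both libraries also stood high in the median over all genes. Without Kit+Sca1- replicate 3 the split against MacHigh cells was 24 higher and 8 lower, and without Kit+Sca1+ replicate 4 it was 7 and 0.

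Among MacHigh libraries, replicate 5 was highest for Atp5d (193 FPKM, next 165) and Cox8a (395, next 352), replicate 4 was highest for Atp5j (134, next 122), and replicate 2 was lowest for Atp5g3 (303, next 375) and Uqcr10 (129, next 145). Cox8a was also highest in unsorted replicate 5 (397, next 358). Atp5g2 had 3.20 FPKM in unsorted replicate 2 (next 0.0833) and 1.24 FPKM in Kit+Sca1+ replicate 3 (next 0.001). Cox7a1 was lowest in Kit-Sca1- replicate 5 (2.30 FPKM, next 3.79).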

How the results depend on the processing

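Counts are of genes called. In Kit+Sca1+ against MacHigh cells the 12 calls became 38 with quantile normalization and 23 with a replicate block by sample name prefix, and 7 to 17 when single libraries were left out. The same FPKM sum in every library gave 61 in place of 37 in Kit+Sca1- against MacHigh, 42 in place of 23 in Kit+Sca1+ against Kit+Sca1-, 20 in place of 35 in Kit+Sca1+ against Kit-Sca1-, and 22 in place of 13 in Kit+Sca1- against unsorted cells. MacHigh against unsorted cells had 17 calls, and 42 with quantile normalization, 39 with the same FPKM sum, 28 with only these groups fitted, 27 with library weights, 26 with a replicate block by title number and 31 by prefix. Kit-Sca1- against unsorted cells had 9 calls, and 5, 2, 38 and 26 with quantile normalization, the same FPKM sum, weights and the prefix block; leaving out libraries gave 2 to 19. Kit+Sca1+ against unsorted cells had 11 calls, and 6 to 11 without single libraries. The cause was not tested. Kit-Sca1- against MacHigh (51 calls) and the F test (59) stayed within 1.5 times under all settings. So did the total of Kit+Sca1- against Kit-Sca1- (24), but its split of 8 higher and 16 lower turned to 21 and 3 with the same FPKM sum. Of 4340 settings over 124 results for named genes, 4103 kept direction and call, 236 lost the call and 1 reversed: Cox4i1 in Kit+Sca1- against MacHigh cells, to 0.13 with the same FPKM sum. Block by title number moved no other count by over 1.5 times; those numbers correlate in 22 of 46 pairs. FPKM hide the reads behind low genes, so differences of genes near 1 FPKM are the least certain, and the missing estimates leave Atp5d and Ndufs7 undescribed in Kit+Sca1- cells.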
